A study of Homo sapiens with 6 samples.

Results

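The genes described here encode a group of proteins that are abundant in embryonic cells and that are linked to each other through let-7, a family of microRNAs. They are LIN28A, LIN28B, IGF2BP1, IGF2BP2, IGF2BP3, HMGA1, HMGA2, TRIM71 and DICER1, and they were chosen by name. All 9 were found among the 23615 genes of the deposited expression table. The cells were H1 hESCs, an established line of human embryonic stem cells, which were specified to ectoderm with 0.5 nM BMP-4 over 3 days and with 10% fetal calf serum (FCS) thereafter, until day 10. Cells of one group also received 5 μM DAPT, which inhibits γ-secretase, the protease through which Notch receptors signal. Cells of the other group received the ethanol vehicle. Both groups shared the line, BMP-4 and FCS, and each treatment had 3 sequenced libraries, 6 in all. The labels do not name separate cultures, and a single line limits the model to that line.

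The authors deposited 1 value per gene and treatment, computed over the 3 libraries. Its unit is FPKM, the number of sequenced fragments divided by the length of the transcript and by the mapped total, so levels of different genes can be set side by side per length. There are no values per library. No SD, interval or test could therefore be given for any difference between DAPT and ethanol below, and the depth is unknown. A gene was counted as expressed with at least 1 FPKM in either treatment and a value above 0 in both, which 13370 genes were. Differences are log2 ratios of DAPT over ethanol. Their median over the expressed genes was 0.000635, with quartiles of -0.28 and 0.27. Of the expressed genes, 638 (4.77%) were at least 2-fold higher with DAPT and 729 (5.45%) at least 2-fold lower. After centring on the median of 14 housekeeping genes, which shifts every log2 ratio by 0.20, these counts were 888 and 538. The 2 deposited sheets disagree on which of the treatments a value belongs to, and with the other naming every direction given here would be the reverse. The naming followed here is that of the table of changed genes, which counts genes over-expressed in each treatment. Under it the stem cell gene POU5F1 had 47.3 FPKM with DAPT against 240.1 with ethanol, and the ectoderm genes TFAP2A and TP63 had 21.8 against 7.10 and 3.88 against 0.546.

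The let-7 microRNAs are short RNAs that lower the output of mRNAs by pairing with their 3' untranslated regions (UTRs), mainly through the seed at bases 2 to 8. LIN28A and LIN28B bind let-7 precursors at the loop, in which a GGAG motif is a known contact, and block their processing. Mature let-7 in turn represses the mRNAs of LIN28, HMGA2, TRIM71 and the IGF2BP proteins, so that cells tend to hold either many of these proteins or much let-7. DICER1 is the nuclease that makes mature microRNAs from their hairpin precursors. In human embryonic stem cells LIN28 is high and mature let-7 is low.

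The mature sequences are shown because their shared seed is what the UTRs of the genes were searched for. All 9 mature let-7 and miR-98 sequences of the 5p arm of the hairpin in the RefSeq table (GRCh38.p14) have the seed GAGGUAG, in capitals. Of them, 4 are given here. Of 2370 mature human microRNAs in that table, 11 have this seed, the other 2 being miR-4458 and miR-4500.
hsa-let-7a-5p: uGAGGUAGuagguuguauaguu
hsa-let-7e-5p: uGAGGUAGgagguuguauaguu
hsa-let-7g-5p: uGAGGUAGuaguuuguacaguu
hsa-miR-98-5p: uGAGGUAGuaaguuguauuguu

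The hairpins are shown because they are what LIN28 proteins bind and DICER1 cleaves. Of the 12 let-7 and miR-98 hairpins, 9 held GGAG (in capitals) between the arms, read on the transcribed strand only. The other 3 were those of let-7a-3, let-7b and miR-98. In the let-7f-2 hairpin, which has no 3p entry in the table, the search ran to the end of the hairpin. For comparison, 678 of 1562 human hairpins (43.4%) held GGAG at any place, over a longer stretch than the one between the arms. Coordinates are exact matches on GRCh37, the build called hg19.
MIRLET7A1 (chr9:96938239-96938318, + strand): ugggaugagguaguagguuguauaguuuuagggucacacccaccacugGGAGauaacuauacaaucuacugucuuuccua
MIRLET7G (chr3:52302294-52302377, - strand): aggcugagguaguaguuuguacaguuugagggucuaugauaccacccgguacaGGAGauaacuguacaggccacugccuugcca
MIRLET7A3 (chr22:46508629-46508702, + strand): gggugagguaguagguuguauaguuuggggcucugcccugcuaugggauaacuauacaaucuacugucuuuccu

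All 9 genes had well over 1 FPKM in both treatments, from 10.0 FPKM (TRIM71 with DAPT) to 421 FPKM (HMGA1 with ethanol). HMGA2 was the 1 gene at least 2-fold higher with DAPT (1 of 9, or 11.1%, against 4.77% of expressed genes). None of the 9 was at least 2-fold lower (against 5.45%), although TRIM71 was just inside that limit at 1.96-fold. At a limit of 1.5-fold, HMGA2 was again the 1 gene that was higher (against 10.5% of expressed genes), and LIN28A, HMGA1 and TRIM71 were lower (3 of 9, against 11.4%). The other 5 lay within 1.5-fold. The median log2 ratio of the 9 was 0.11. These 1.5-fold calls depended on the scaling: centred on housekeeping genes, HMGA2 and DICER1 were higher and only TRIM71 lower, and with equal FPKM sums HMGA2 was higher and HMGA1 and TRIM71 lower. By sign alone, 6 of the 9 were higher with DAPT and 3 lower, with IGF2BP1 the 1 whose sign turned under an alternative.

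**Figure D1:**
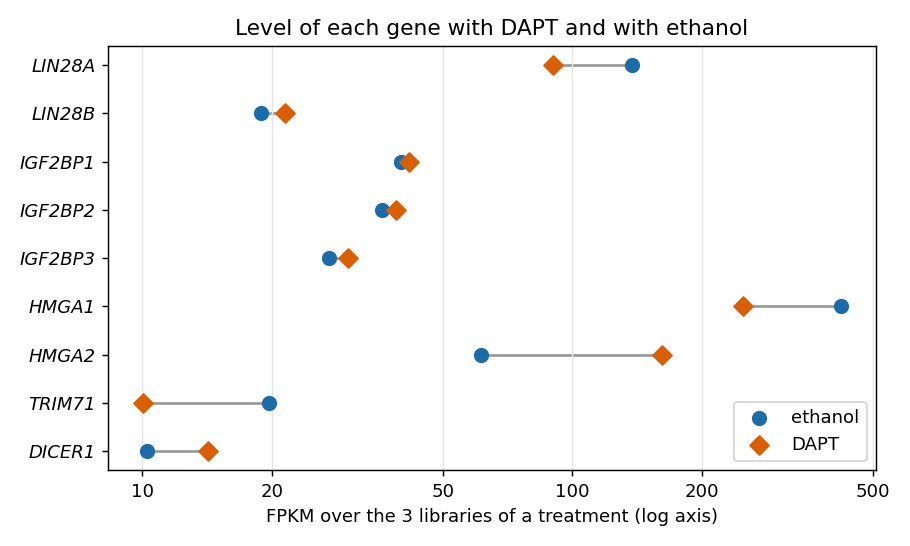
FPKM of each of the 9 genes with ethanol (circles) and DAPT (diamonds), 1 pooled value per treatment over 3 libraries, on a log axis; the lines join the values of a gene and are not errors. HMGA2 moves from 61.3 FPKM with ethanol to 162 FPKM with DAPT, while HMGA1, LIN28A and TRIM71 lie lower with DAPT and the 3 IGF2BP genes nearly coincide.

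LIN28A and LIN28B encode the cold-shock and zinc-knuckle proteins that block let-7 maturation. LIN28A had 90.4 FPKM in DAPT-treated and 138 FPKM in ethanol-treated cells, a log2 ratio of -0.61 or 1.53-fold lower. LIN28A ranked 721st by level among all 23615 genes with DAPT and 496th with ethanol. LIN28B had 21.4 FPKM in DAPT-treated and 18.9 FPKM in ethanol-treated cells, a log2 ratio of 0.18. The paralogs therefore differed in direction, but the ratio of LIN28B lay inside the quartiles of all expressed genes and that of LIN28A did not. Of the summed LIN28 level, LIN28A made up 80.8% with DAPT and 88.0% with ethanol. The sum was 112 FPKM in DAPT-treated and 157 FPKM in ethanol-treated cells, 1.40-fold lower, and LIN28A was 4.22 times LIN28B with DAPT and 7.31 times with ethanol. LIN28A lies at chr1:26737269-26756219 and LIN28B at chr6:105404923-105531207, both on the + strand of hg19.

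TRIM71, the human counterpart of the worm gene lin-41, encodes an RNA-binding ubiquitin ligase that represses mRNAs and is one of the most conserved let-7 targets. TRIM71 had 10.0 FPKM in DAPT-treated and 19.7 FPKM in ethanol-treated cells, a log2 ratio of -0.97. It was the lowest ratio of the 9 genes, and 766 expressed genes had a lower one. Its rank by level went from 3437th with ethanol to 5824th with DAPT. TRIM71 was just short of the 2-fold limit and passed it after an adjustment for transcript length or GC content, described further on. Those adjustments were chosen after seeing the data. The log2 ratio of TRIM71 was -0.77 when centred on housekeeping genes and -0.90 with equal FPKM sums, both farther from the limit. The locus of the table is chr3:32859510-32933771 (+ strand), while the GENCODE gene model on the same build ends at 32939316.

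The 3 IGF2BP genes encode RNA-binding proteins with KH domains that bind, stabilise and localise mRNAs and read the m6A mark. Their levels differed little between treatments. IGF2BP1 had 41.8 FPKM in DAPT-treated and 39.9 FPKM in ethanol-treated cells, a log2 ratio of 0.07 whose sign turned to -0.09 once the median of genes of like transcript length was subtracted. IGF2BP2 had 38.9 and 36.1 FPKM (0.11), and IGF2BP3 had 30.1 and 27.2 FPKM (0.15). All 3 ratios lay inside the quartiles of the expressed genes. The order IGF2BP1, IGF2BP2, IGF2BP3 was the same in both treatments, but without a spread it cannot be said whether neighbours in it differ. Their summed level was 111 FPKM in DAPT-treated and 103 FPKM in ethanol-treated cells (1.07-fold), with shares of 37.7%, 35.1% and 27.2% with DAPT and 38.6%, 35.0% and 26.3% with ethanol. IGF2BP1 lies at chr17:47074774-47133507 (+ strand), IGF2BP2 at chr3:185361527-185542827 (- strand) and IGF2BP3 at chr7:23349828-23509995 (- strand).

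HMGA1 and HMGA2 encode small chromatin proteins that bind AT-rich DNA through AT-hooks and are high in embryonic tissue. Their mRNA levels differed between treatments in opposite directions. HMGA1 had 249.6 FPKM in DAPT-treated and 421 FPKM in ethanol-treated cells, 1.69-fold lower (log2 ratio -0.75). HMGA2 had 162 FPKM in DAPT-treated and 61.3 FPKM in ethanol-treated cells, 2.63-fold higher (log2 ratio 1.40), and 377 expressed genes had a higher ratio. HMGA1 was the most abundant of the 9 genes in both treatments. HMGA2 was the third with ethanol and the second with DAPT, where it passed LIN28A. HMGA1 was 6.87 times HMGA2 with ethanol and 1.54 times with DAPT, so the share of HMGA2 in their sum was 12.7% with ethanol and 39.3% with DAPT. The sum itself was 482 FPKM with ethanol and 411 FPKM with DAPT, 1.17-fold lower. Centring on the housekeeping genes moved the log2 ratio of that sum from -0.23 to -0.03, of the LIN28 sum from -0.49 to -0.29 and of the IGF2BP sum from 0.10 to 0.30. HMGA1 lies at chr6:34204577-34214008 and HMGA2 at chr12:66151800-66360071, both on the + strand.

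DICER1 had 14.2 FPKM in DAPT-treated and 10.3 FPKM in ethanol-treated cells, 1.38-fold higher (log2 ratio 0.47). This was outside the quartiles of all expressed genes but inside the 1.5-fold limit. DICER1 lies at chr14:95552565-95623759 (- strand). Its divergent neighbour DICER1-AS1, a noncoding transcript, had 3.10 FPKM in DAPT-treated and 4.73 FPKM in ethanol-treated cells, so the transcripts differed in opposite directions. Whether strand was used in counting is not given in the sources used here, so reads of a gene and of an antisense neighbour may not have been told apart. Rows listed at the same locus as 1 of the 9 genes were nearly silent: C3orf65 at IGF2BP2 (0 and 0.0109 FPKM), RPSAP52 at HMGA2 (0.276 with DAPT and 0.113 with ethanol) and MIR3173 at DICER1 (0 in both).

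**Figure D2:**
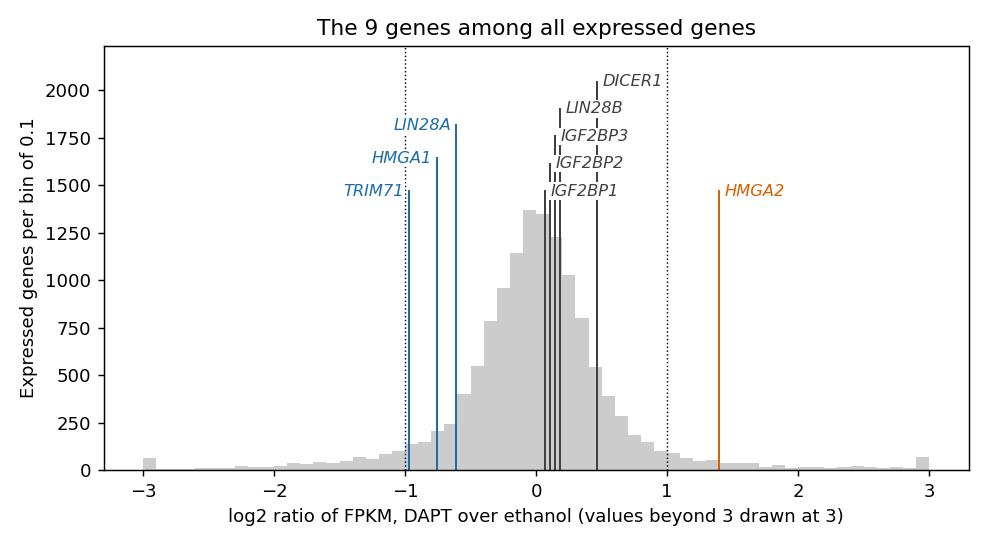
Histogram of log2 ratios of FPKM (DAPT over ethanol) of the 13370 expressed genes in bins of 0.1, with a vertical line at the ratio of each of the 9 genes; line heights serve the labels only, and dotted lines mark 2-fold. HMGA2 stands to the right of the 2-fold line at 1.40 and TRIM71 just inside the left one at -0.97, while LIN28B and the 3 IGF2BP genes stand near the centre.

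Genes of like level gave a further reference for the size of these ratios. Each gene was set beside the 1337 expressed genes of its own level class, 1 of 10 equal classes by mean FPKM. Of those, 2.32% had a log2 ratio at least as far from 0 as HMGA2, 5.83% as TRIM71, 9.20% as HMGA1 and 12.9% as LIN28A. The share was 20.3% for DICER1, 56.8% for LIN28B and between 64.7% and 84.4% for the 3 IGF2BP genes. These shares describe where the genes stand among others and are not tests.

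The log2 ratio moved with transcript length and GC content across all genes, and the 9 genes span much of both ranges. Canonical transcripts were found for 12303 expressed genes (92.0%). In 10 equal classes by length, the median log2 ratio was -0.26 in the shortest and 0.15 in the longest, and in 10 classes by GC content it was 0.15 in the lowest and -0.26 in the highest. HMGA1, with the shortest and most GC-rich transcript of the 9 (1920 bases, 61.6% GC), lay in classes with medians of -0.10 for length and -0.20 for GC. Less those medians its log2 ratio was -0.66 and -0.56. For HMGA2 (4117 bases, 43.5% GC) the same subtraction left 1.33 and 1.31. For TRIM71 (8704 bases, 47.4% GC), whose length class had a median of 0.15, it left -1.13 and -1.01. For LIN28A (3975 bases, 48.4% GC) it left -0.67 and -0.65, and for DICER1 (10384 bases, 40.2% GC) 0.31 and 0.34. The part of length or GC content in these values was not tested further.

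The 3' UTRs of the 9 genes were then searched on the sense strand for CTACCTC, the 7 letters that pair with the let-7 seed, and for the same letters followed by A. In the longest annotated 3' UTR of each gene, 7 of the 9 held at least 1 match, against 12.1% of 12336 expressed genes. TRIM71 held 6, more than any other of these genes. LIN28B and IGF2BP1 held 4 each, and LIN28A, IGF2BP2, IGF2BP3 and HMGA1 held 1 each. Only 3 expressed genes held more than 4. DICER1 held none, and neither did the longest HMGA2 UTR, which belongs to a variant with a different last exon. The UTR of the canonical HMGA2 transcript held 4, so 8 of the 9 genes held a match in the canonical transcript, against 11.1% of 12296 expressed genes. Most of the 9 are known let-7 targets, and their matches are thus not independent of why they are grouped.

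Long UTRs hold more matches by length alone. Of expressed genes with a UTR within 10% of the length of the longest TRIM71 UTR (6013 bases), 30.4% held a match, and for IGF2BP1 (6701 bases) and LIN28B (4549 bases) the shares were 36.4% and 24.9%. The shares that held as many matches as these genes were 0% for TRIM71, 0% for IGF2BP1 and 0.15% for LIN28B. For LIN28A, IGF2BP2, IGF2BP3 and HMGA1 the shares with a match were 16.3%, 13.1%, 12.9% and 7.56%. For the canonical HMGA2 UTR (2999 bases) 15.1% held a match and 0% held as many. For DICER1 (4270 bases), which held none, the share with a match was 22.4%.

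Sites are shown because the genes that differed most between treatments (HMGA2, TRIM71) and those near the centre (LIN28B, IGF2BP1) carry the same 7 letters, in capitals. Each is written with its flanks as 30 bases of GRCh37, 5′ to 3′ on the strand of the gene. In the first 6 the letter after the capitals is an A, which makes the 8-letter match, and in that of HMGA1 it is not.
HMGA2, 21 bases into the UTR (chr12:66357078-66357107, + strand): gccaacgttcgatttCTACCTCagcagcag
TRIM71, 172 bases in (chr3:32933460-32933489, + strand): aacattgcttaagtcCTACCTCatctttat
TRIM71, 4032 bases in (chr3:32937320-32937349, + strand): cttgtggcaagtcatCTACCTCatgttagc
LIN28A, 905 bases in (chr1:26753839-26753868, + strand): gcacagcctattgaaCTACCTCatttttgc
LIN28B, 44 bases in (chr6:105526687-105526716, + strand): acccggttgcaaagtCTACCTCatgcaagt
IGF2BP1, 1632 bases in (chr17:47128423-47128452, + strand): tgtgtgcgaagtaaaCTACCTCaaggtatg
HMGA1, 960 bases in (chr6:34213606-34213635, + strand): tcctctgttcacaaaCTACCTCtggacagt

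**Figure D3:**
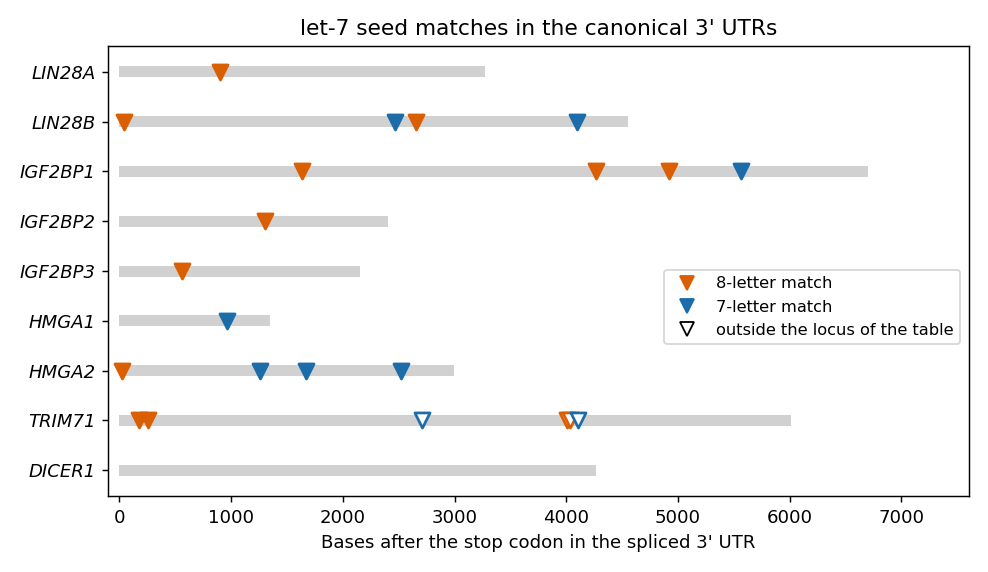
Spliced 3' UTR of the canonical transcript of each gene (grey bars, to scale in bases after the stop codon) with each match to the let-7 seed (triangles), orange where the match is followed by A and blue where it is not; open triangles lie outside the locus listed in the expression table. TRIM71 carries 6 matches, 4 of them open, while DICER1 carries none.

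The 8-letter form occurred 4 times in TRIM71, 3 times in IGF2BP1, 2 times in LIN28B and once each in LIN28A, IGF2BP2, IGF2BP3 and the canonical HMGA2 UTR. Of the 6 TRIM71 matches, 4 lie beyond the end of the locus in the table, so the FPKM of TRIM71 was computed on a shorter gene model than the one searched. The number of matches did not order the ratios of the 9 genes. TRIM71, with 6, had the lowest log2 ratio (-0.97), and HMGA2, with 4 in its canonical UTR, the highest (1.40). LIN28B and IGF2BP1, with 4 each, had ratios of 0.18 and 0.07.

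Over all expressed genes, too, ratios of genes with and without a match lay close together. Counted in the longest annotated UTR, the median log2 ratio was -0.0086 for the 10849 genes with none, HMGA2 among them, and 0.05 for the 1487 genes with at least 1. For genes with 4 or more it was -0.03 (11 genes, of which TRIM71, LIN28B and IGF2BP1 are 3). In canonical UTRs, where HMGA2 is also in this class, it was 0.02 (12 genes). UTR length moved with the ratio: in 4 equal classes of UTR length from short to long, genes with no match had medians of -0.17, -0.03, 0.07 and 0.12, and genes with a match -0.12, -0.03, 0.06 and 0.09. Of the other 8 genes with 4 or more matches, NR6A1 (an orphan nuclear receptor, 5 matches) had 14.3 FPKM in DAPT-treated and 19.8 FPKM in ethanol-treated cells, and IGDCC3 (a cell-surface protein, 4 matches) had 39.1 and 26.3 FPKM. These 2 were chosen after their values were seen, as the largest differences in each direction among the 8.

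**Figure D4:**
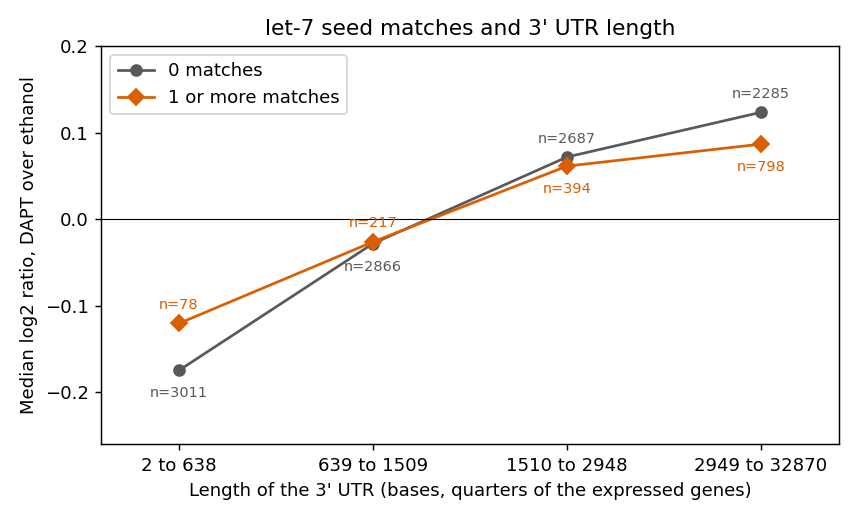
Median log2 ratio (DAPT over ethanol) of expressed genes with no match to the let-7 seed (grey circles) and with at least 1 (orange diamonds), in 4 equal classes of the length of the longest annotated 3' UTR, with the number of genes at each point. Both lines climb with UTR length, from -0.17 and -0.12 in the shortest class to 0.12 and 0.09 in the longest.

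Mature let-7 was not measured, since libraries of poly-A mRNA do not hold mature microRNAs. Of 18 rows for let-7 and miR-98 hairpins and host transcripts, 5 were expressed and 11 were listed at 0 in both treatments. None of the 5 was past 2-fold, and their median log2 ratio was 0.12. WDR82, whose locus hosts let-7g, had 45.0 FPKM in DAPT-treated and 41.4 FPKM in ethanol-treated cells. HUWE1, which hosts let-7f-2 and miR-98, had 22.3 and 24.7 FPKM. MIR100HG, a noncoding host of let-7a-2, had 4.21 FPKM in DAPT-treated and 2.44 FPKM in ethanol-treated cells and was the 1 of the 5 past 1.5-fold. The row named MIRLET7D had 27.7 and 34.7 FPKM, on a hairpin of 87 bases, for which a value per kilobase is uncertain.

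Of 26 genes that make, modify or use let-7, all were expressed. Of these, 1 was at least 2-fold higher with DAPT (3.85%, against 4.77% of expressed genes) and none at least 2-fold lower (against 5.45%). Their median log2 ratio was 0.05. The 1 gene was TNRC6B, a scaffold of the silencing complex, at 1.51 FPKM in DAPT-treated and 0.678 FPKM in ethanol-treated cells, both low levels. It counted as expressed through its DAPT value alone. The most abundant others, by the higher of the values in either treatment, were ILF2 (206 and 221 FPKM), a double-stranded RNA-binding complex subunit, and DDX5 (198 with DAPT and 136.5 with ethanol), a helicase that assists nuclear hairpin cleavage. Of the enzymes around the LIN28 step, DROSHA, the nuclear nuclease, had 14.7 FPKM with DAPT and 14.5 with ethanol, while its partner DGCR8 had 11.2 and 7.24 FPKM (log2 ratio 0.63, past 1.5-fold). ZCCHC11, which adds uridines to LIN28-bound let-7, had 12.7 and 11.1 FPKM, and DIS3L2, which degrades the uridylated hairpin, had 4.78 and 3.90 FPKM.

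Of 26 expressed let-7 targets outside the 9 genes, 3 were at least 2-fold higher with DAPT (11.5%, against 4.77%). None was at least 2-fold lower (against 5.45%), and the median log2 ratio was 0.14. With a pseudocount of 1 FPKM or with at least 5 FPKM, 2 instead of 3 were higher. CCND1, which encodes cyclin D1, had 29.0 FPKM in DAPT-treated and 5.52 FPKM in ethanol-treated cells (log2 ratio 2.39). ARID3B, a DNA-binding protein, had 11.0 and 3.71 FPKM (1.57), and HOXA9, a homeobox transcription factor, had 1.30 and 0.523 FPKM (1.31). HOXA9 was low in both treatments and counted as expressed through its DAPT value alone. These 3 differed in the direction of HMGA2, while the targets LIN28A and TRIM71 differed in the other. Among the rest, the most abundant by the same measure were THBS1, a matrix glycoprotein (66.5 with DAPT and 37.1 with ethanol), and CDC34, a ubiquitin-conjugating enzyme (49.9 and 66.7).

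For the IGF2BP proteins, 10 of 12 listed mRNAs that they bind were expressed, of which 2 were at least 2-fold higher with DAPT (20%, against 4.77% of expressed genes) and none lower (against 5.45%), with a median log2 ratio of 0.24. IGF2, the growth factor that gave the family its name, had 11.7 FPKM in DAPT-treated and 4.10 FPKM in ethanol-treated cells (1.51), beside the 1.07-fold difference in the summed IGF2BP level. MAPK4, an atypical MAP kinase whose mRNA IGF2BP1 binds, had 2.49 and 0.920 FPKM (1.43). MAPK4 was low in both treatments and counted as expressed through its DAPT value alone. With a pseudocount of 1 FPKM or with at least 5 FPKM, 1 instead of 2 of the listed mRNAs was higher. ACTB, the β-actin mRNA through which IGF2BP1 was found in chicken, had 2384 and 2768 FPKM, and the noncoding RNA H19 had 1587 and 1274 FPKM. Of 18 expressed partners of IGF2BP1 and genes of the m6A machinery, ELAVL2, an RNA-binding protein of neurons, was the 1 past 2-fold, or 5.56% against 4.77% (7.97 FPKM in DAPT-treated and 3.93 FPKM in ethanol-treated cells, 1.02), and their median was 0.17. YBX1 (357 and 458 FPKM) and PABPC1 (340 and 391 FPKM), both mRNA-binding proteins, were the most abundant of the others.

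The 10 other high mobility group genes, of the HMGB, HMGN and HMG20 kinds, all lay within 1.5-fold, with a median log2 ratio of -0.0016. So did most expressed genes, of which 10.5% were at least 1.5-fold higher and 11.4% lower. HMGA1 and HMGA2 were past that limit, though HMGA1 was not when centred on housekeeping genes. HMGB2 had 121 FPKM in DAPT-treated and 127 FPKM in ethanol-treated cells, and HMGN1 had 107 and 101 FPKM. Of 6 mRNAs that TRIM71 represses or that are linked to it, none was past 1.5-fold (median 0.03). Against 10.5% of expressed genes higher and 11.4% lower, a list of 6 is too short to be set apart. CDKN1A encodes the cell cycle inhibitor p21 and is a TRIM71 target known from mouse embryonic stem cells. CDKN1A had 122 FPKM in DAPT-treated and 178 FPKM in ethanol-treated cells, within 1.5-fold. Both CDKN1A and TRIM71 were lower with DAPT, and a link between them was not tested. RBL2, a protein of the retinoblastoma family, had 9.79 and 7.94 FPKM.

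**Figure D5:**
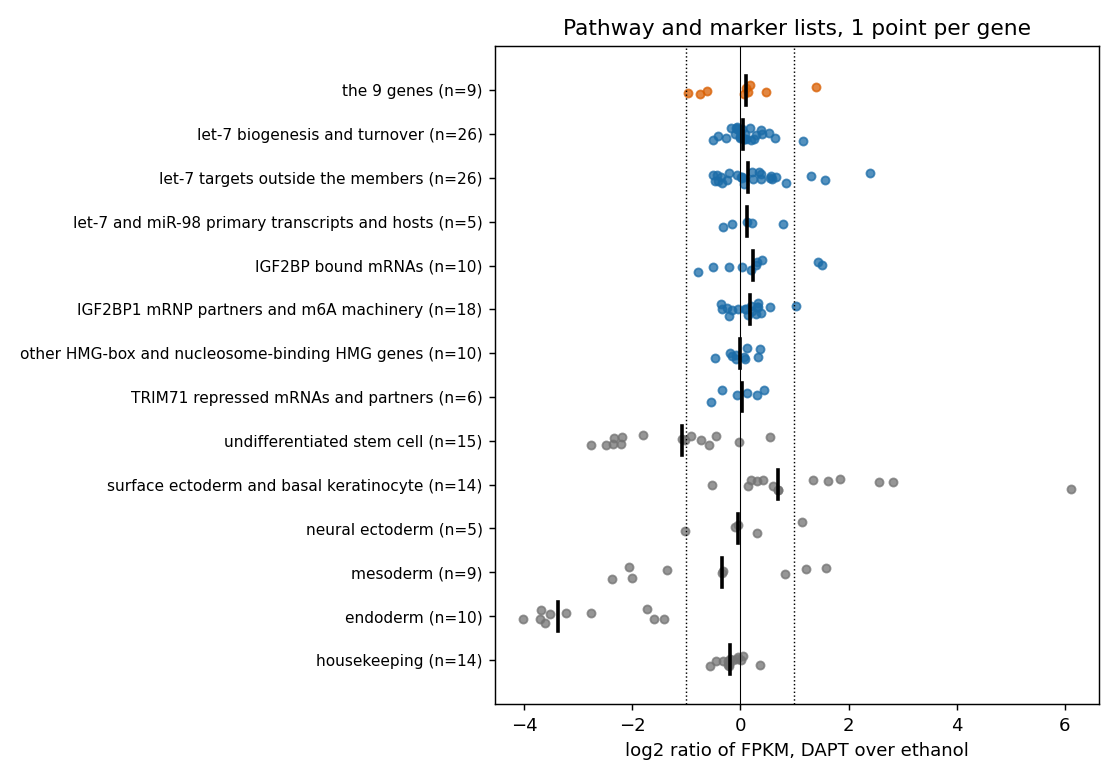
Log2 ratio of FPKM (DAPT over ethanol) of each expressed gene in the 9 genes (orange), pathway lists (blue) and cell type marker lists (grey), with a black bar at the median of each list and dotted lines at 2-fold; n counts the expressed genes. Pathway lists of at least 5 expressed genes, the ones drawn, have medians from -0.0016 to 0.24, whereas stem cell and endoderm markers lie to the left, with medians of -1.08 and -3.37.

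Markers of cell states differed between treatments alongside these genes. Of 15 expressed markers of undifferentiated stem cells, 9 were at least 2-fold lower with DAPT (60%, against 5.45% of expressed genes) and none higher (against 4.77%), and their summed level was 291 FPKM in DAPT-treated and 721 FPKM in ethanol-treated cells (median log2 ratio -1.08). They ranged widely: POU5F1, which encodes OCT4, had a log2 ratio of -2.34, SALL4 -0.58, SOX2 -0.45, ZFP42 -0.03 and LEFTY2 0.55. Among the stem cell markers at least 2-fold lower, DPPA2, LEFTY1 and TERT counted as expressed through their ethanol values alone. LIN28A, also a gene of undifferentiated cells, had a log2 ratio of -0.61, against a median of -1.08 for the expressed stem cell markers. All 10 expressed endoderm markers were at least 2-fold lower (against 5.45%), summing to 50.5 FPKM in DAPT-treated and 552 FPKM in ethanol-treated cells. APOA1 alone had 24.7 and 403 FPKM, and SOX17, FOXA2, EOMES and HNF4A counted as expressed through their ethanol values alone. Of 14 expressed surface ectoderm and basal keratinocyte markers, 6 were at least 2-fold higher (42.9%, against 4.77%) and none lower, summing to 2027 and 1736 FPKM (median 0.69). KRT8 (961 and 876 FPKM) and KRT18 (846 and 687 FPKM) made up most of that sum. Among the 6, TFAP2B, TP63 and KRT5 counted as expressed through their DAPT values alone. Of 9 expressed mesoderm markers, 2 were at least 2-fold higher (22.2%) and 4 lower (44.4%), summing to 94.7 and 131.5 FPKM, and of 5 of neural ectoderm 1 was higher and 1 lower (20% each), summing to 223 and 215 FPKM. The shares of all expressed genes for these are again 4.77% higher and 5.45% lower. Of the mesoderm markers past 2-fold, MEF2C (higher) counted as expressed through its DAPT value alone and T (lower) through its ethanol value alone. TUBB3 (130 and 133 FPKM) and NES (69.5 and 56.4 FPKM) made up most of the neural ectoderm sum. None of the markers in any list was at 0. In bulk RNA, fewer cells of a type and less RNA per cell cannot be told apart, and the part of these cell states in the values of the 9 genes was not tested.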

How the data were processed

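Stranded poly-A libraries, 3 per treatment, were sequenced by the authors, who mapped the reads to hg19 with TopHat2 2.0.6 per the submitters' processing notes and computed expression with Cufflinks. The deposited FPKM values are the authors' estimates, 1 per gene and treatment over 3 libraries. The annotation and the scaling of libraries were not stated in these sources, and the depth is unknown. The deposited fold changes, test statistics, p-values, q-values and significance marks hold the authors' own comparison and were not used. All 1417 rows of the second deposited sheet hold the same values as the first.

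Log2 ratios of DAPT over ethanol were computed with no pseudocount for genes with at least 1 FPKM in either treatment and above 0 in both. With 1 pooled value per treatment no test was possible. Loci of the table count starts from 0 (start plus 1 equals the annotated start for 4693 of 19881 genes, the start itself for 569) and are printed from 1. UTRs, transcripts and bases came from GENCODE v44lift37 on GRCh37, and microRNAs from RefSeq. Python 3.11.15, pandas 2.3.3 and pysam 0.24.0 were used, and the computations were tested on simulated data. From the pathway lists, every gene past 2-fold (at most 6) and the 2 most abundant others were named, and a few more for their role, chosen after their values were seen. The 9 genes and all lists were chosen with earlier results of these data known.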

Additional observations from a re-analysis of the deposited data

How the results depend on the processing

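The counts of expressed genes at least 2-fold higher and lower, 638 and 729, were 367 and 367 with a pseudocount of 1 FPKM, 1559 and 1880 with no filter on low values, 312 and 316 with at least 5 FPKM, 1402 and 1528 at 1.5-fold, and 308 and 323 at 3-fold. Of the 9 genes, 3 instead of 0 were lower at 1.5-fold, and 0 instead of 1 (HMGA2) were higher at 3-fold. TRIM71 passed 2-fold lower after subtraction of the median of like genes by length (-1.13) or GC content (-1.01), alternatives chosen after seeing the data. Centred on housekeeping genes, the genes past 1.5-fold were HMGA2 and DICER1 (higher) and TRIM71 (lower), and with equal FPKM sums HMGA2 (higher), HMGA1 and TRIM71 (lower). Over 7 alternatives the log2 ratio of HMGA2 ran from 1.31 to 1.60, of TRIM71 from -1.13 to -0.77, of HMGA1 from -0.76 to -0.56 and of LIN28A from -0.67 to -0.41, and the sign turned for IGF2BP1 alone, in 1 of them. The number of the 9 genes with a let-7 seed match was 7, or 6 for the 8-letter match, 5 in the shortest UTRs and 8 in canonical UTRs. Of 16 counts over the pathway lists, 5 moved by more than 1.5 times, or to or from 0, at 1.5-fold, 4 at 3-fold, 3 with a pseudocount of 1 FPKM, 2 with at least 5 FPKM, 2 with no filter and none under the 3 rescalings, where the let-7 targets 2-fold higher went from 3 to 4 on centring on housekeeping genes. No paired analysis was possible because the deposited values pool the 3 libraries of each treatment. For the same reason no library could be left out, and precision is unknown.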
